A study of Homo sapiens with 9 samples.

Results

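The 8 genes described here are HSPA6, a heat-inducible HSP70, the HSP110 exchange factors HSPH1, HSPA4 and HSPA4L, and the HSP70 relatives HSPA9, HSPA13, HSPA14 and HSPA2. They were found as the 21 probe sets whose platform annotation gives 1 symbol and that symbol is one of the 8, out of 41091 probe sets with 1 symbol that cover 19775 genes. U937, a human lymphoma line that grows in suspension and has monocytic features, was heated for 15 min at 44 °C or at 42 °C and returned to 37 °C for 0, 1, 3 or 6 h. The control cells were not heated, and their label gives no temperature and no time. Each of the 9 conditions had 1 array, so no value has a replicate, no test was run and no spread separates neighbouring levels.

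HSP70 proteins hold unfolded protein segments in a cycle driven by ATP. J-domain proteins (HSP40) bring substrates and trigger ATP hydrolysis, and exchange factors release ADP so that the substrate can leave. The HSP110 proteins are distant HSP70 relatives that act as exchange factors for HSP70 and work with it in dissolving protein aggregates. Heat shock factor HSF1 binds heat shock elements, which are inverted repeats of a short unit, in front of many chaperone genes after heating.

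The promoter windows of the 3 members that passed 2-fold against the control are shown because they differ in their matches to this element. The windows are from RefSeq (GRCh38.p14) and run from 250 bases before to 50 bases after a gene's start. Of the 8 members 7 had a window in that table, and HSPA14 had none. The element was searched on both strands as 3 units, TTCNNGAANNTTC or GAANNTTCNNGAA, and as 2 units, GAANNTTC or TTCNNGAA, which also lie inside the longer forms. Capitals mark every match. Units with other letters, other gaps and sites outside the windows were not searched. A window without a match may therefore belong to a gene that has the element. HSPA6 lies on the plus strand at chr1:161524290-161524589, HSPH1 on the minus strand at chr13:31162339-31162638 and the window of HSPA4L that holds a match, the second of its 3, on the plus strand at chr4:127782072-127782371.
HSPA6: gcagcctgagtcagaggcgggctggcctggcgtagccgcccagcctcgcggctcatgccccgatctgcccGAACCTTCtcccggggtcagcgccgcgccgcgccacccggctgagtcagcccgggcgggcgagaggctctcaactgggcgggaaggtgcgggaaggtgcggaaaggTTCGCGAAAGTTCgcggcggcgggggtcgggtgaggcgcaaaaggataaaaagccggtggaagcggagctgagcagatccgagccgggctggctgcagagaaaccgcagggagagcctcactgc
HSPH1: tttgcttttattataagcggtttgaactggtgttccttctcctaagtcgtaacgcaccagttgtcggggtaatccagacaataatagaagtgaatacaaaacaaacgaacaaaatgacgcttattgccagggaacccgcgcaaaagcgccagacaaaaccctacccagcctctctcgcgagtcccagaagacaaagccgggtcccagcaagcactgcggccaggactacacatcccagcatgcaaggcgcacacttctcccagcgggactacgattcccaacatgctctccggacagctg
HSPA4L: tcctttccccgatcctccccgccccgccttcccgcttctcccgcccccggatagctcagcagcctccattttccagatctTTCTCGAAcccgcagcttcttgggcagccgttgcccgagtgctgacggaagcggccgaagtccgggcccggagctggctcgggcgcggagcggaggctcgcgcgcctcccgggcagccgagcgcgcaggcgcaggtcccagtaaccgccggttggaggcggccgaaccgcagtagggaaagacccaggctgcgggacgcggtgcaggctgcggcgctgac

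HSPA6 was the 1 member of 7 with a 3-unit element, TTCGCGAAAGTTC, which spans positions -74 to -62 from the start. Such an element stood in 172 of the 35116 windows of the table (0.490%), and in 166 of its 27305 genes (0.608%). A separate 2-unit match, GAACCTTC, lies at -180 to -173. HSPA4L had the 2-unit match TTCTCGAA at -170 to -163 in the window shown, and HSPA9 had TTCCAGAA at -4 to 3, across its start. Matches of 2 units are common, in 13.5% of all windows. HSPH1 had no match of either kind in its window, nor did HSPA4, HSPA13 or HSPA2.

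The deposited signals of the 9 arrays had trimmed means of 101 to 211 and were scaled to a common trimmed mean of 100. A floor of 12.5, which is the median over all scaled signals, replaced lower values, and each array had 48.3 to 52.6% of its probe sets above the floor. A gene is said to have risen or fallen when the log2 fold at its brightest probe set was 1 or more in size, that is 2-fold. Of 12 measured myeloid markers 10 were above the floor on all arrays, among them LYZ, ELANE, AZU1 and MNDA, while MPO and FCGR1A were below it on all. Of 6 T cell markers 0 were above it on all arrays. Among 5 measured B cell markers CD79A and PAX5 were, with a summed list signal of 98.8 to 150 on the 44 °C arrays, 73.9 to 133 on the 42 °C arrays and 88.2 on the control array. The summed signal of 6 epithelial and fibroblast markers was 18.7 to 210 on the 44 °C arrays and 64.0 to 302 on the 42 °C arrays, against 21.4 on the control array. This sum followed COL1A1. Its brightest probe set read 200 at 6 h after 44 °C and 268 at 6 h after 42 °C, against 8.37 in control cells, which is below the floor. Other probe sets of COL1A1 had log2 folds of 0 to 1.96 at 6 h after 44 °C and -0.21 to 2.68 at 6 h after 42 °C. COL1A2, EPCAM, CDH1 and KRT19 were below the floor on all arrays. HBB, 1 of 2 measured erythroid markers, ran from 4.99 to 28.9, and ALAS2 was below the floor on all arrays. The myeloid list summed to 10700.5 to 15217.5 on the 44 °C arrays, 10873.7 to 15308.4 on the 42 °C arrays and 14445.8 on the control array, and within it CEBPA, a myeloid transcription factor, fell 2.59-fold at 6 h after 44 °C and 3.70-fold at 3 h after 42 °C. Whether these marker signals had a part in the results was not tested.

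HSPA6 moved furthest of the 8 genes. After 44 °C its brightest probe set, 213418_at, read 131 at 0 h, 3988 at 1 h, 6645 at 3 h and 6587 at 6 h. After 42 °C it read 4751 at 0 h, 7245 at 1 h, 10652 at 3 h and 4525 at 6 h, against 138 on the control array. The 44 °C array at 0 h thus lay just below the control, and the other 7 heated arrays all lay at least 28.9-fold above it. The second probe set, 117_at, gave 68.8, 2098, 4481 and 4361 in the same order of times after 44 °C. It gave 2983, 5293, 7867 and 2779 after 42 °C and 82.6 in control cells. Both probe sets therefore placed the 42 °C array at 3 h highest and the 44 °C array at 0 h lowest.

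In log2, HSPA6 at 213418_at differed from the control by -0.074, 4.85, 5.59 and 5.58 at 0, 1, 3 and 6 h after 44 °C, and by 5.10, 5.71, 6.27 and 5.03 after 42 °C. At 117_at the largest log2 fold was 6.57, at 3 h after 42 °C. The rank of HSPA6 among 9913 genes above the floor on all arrays was 1 in 5 of these 8 comparisons and 2 at 6 h after either temperature. At 0 h after 44 °C its rank was 6061. In RNA pooled from a culture, more transcript per cell and more responding cells cannot be told apart. HSPA7, a near-identical copy annotated as a pseudogene, had no probe set with its symbol alone, and whether its transcript adds to the HSPA6 signals was not tested.

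The course of HSPA6 after its first rise differed between temperatures. Between 0 and 1 h after 44 °C the signal at 213418_at went up 30.4-fold, then 1.67-fold to 3 h, and from 3 to 6 h the log2 change was -0.013. After 42 °C, where the 0 h array was already high, the steps were 1.52-fold from 0 to 1 h and 1.47-fold from 1 to 3 h. From 3 to 6 h the 42 °C signal fell 2.35-fold, a log2 change of -1.24. With quantile normalisation that last step was -0.82 in log2, under 2-fold. Set against the 0 h array of its own temperature in place of the control, HSPA6 at 6 h after 42 °C had a log2 fold of -0.070.

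**Figure D1:**
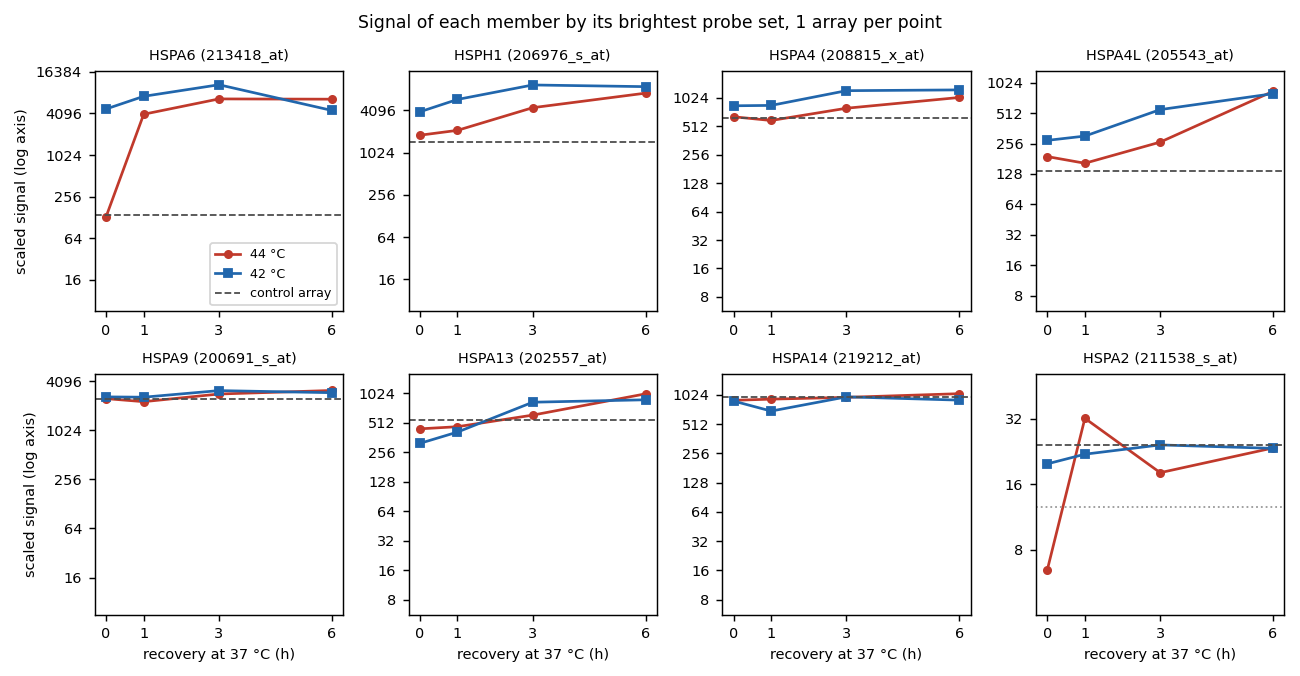
Scaled signal (log axis) of each member by its brightest probe set against hours of recovery, with 44 °C as red circles, 42 °C as blue squares, the control array as a dashed line and, for HSPA2, the floor of 12.5 as a dotted line. HSPA6 at 0 h read 131 after 44 °C and 4751 after 42 °C, against 138 in control cells. The 44 °C signals of HSPH1, HSPA4L, HSPA4, HSPA9, HSPA13 and HSPA14 were highest at 6 h, the last time measured.

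HSPH1, the stress-inducible HSP110 protein, rose by less than HSPA6 on the arrays where both rose, and after 44 °C it passed 2-fold later, at 3 h against 1 h for HSPA6 by their brightest probe sets. By the same probe sets both were past 2-fold at 0 h after 42 °C and highest at 3 h. Its brightest probe set, 206976_s_at, read 1812, 2127, 4471 and 7209 at 0, 1, 3 and 6 h after 44 °C. After 42 °C it read 3904, 5857, 9422 and 8914, against 1464 in control cells. All 8 heated arrays lay above the control, the first pair after 44 °C by less than 2-fold (log2 0.31 and 0.54). At 3 and 6 h after 44 °C the log2 folds were 1.61 and 2.30, and after 42 °C they were 1.42, 2.00, 2.69 and 2.61. At 0 h after 42 °C the call turned on the probe set, since 235573_at had a log2 fold of 0.76 and 208744_x_at one of 1.54.

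The 3 probe sets of HSPH1 differed most at 1 h after 44 °C, where 235573_at had a log2 fold of 1.12 and 208744_x_at one of -0.13. The suffix _x_at marks probe sets whose probes may match other transcripts. At 6 h after 44 °C the 3 log2 folds ran from 2.30 to 3.06, and at 3 h after 42 °C from 2.41 to 2.94. Between 3 and 6 h after 42 °C HSPH1 changed by log2 -0.080 at 206976_s_at, 0.28 at 208744_x_at and -0.23 at 235573_at. HSPA6 fell over those same hours.

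HSPA4L, an HSP110 relative known to be abundant in testis, rose steeply and latest after 44 °C. At 205543_at its signals were 190, 163, 264 and 840 at 0, 1, 3 and 6 h after 44 °C. They were 275, 303, 554 and 795 after 42 °C, against 137 in control cells. From 3 to 6 h after 44 °C the signal went up 3.18-fold, and over the same hours after 42 °C 1.44-fold. The log2 folds against the control reached 2.62 at 6 h after 44 °C and 2.54 at 6 h after 42 °C. The other probe set, 1556194_a_at, read 58.2, 129, 259 and 613 after 44 °C and 134, 304, 333 and 343 after 42 °C, against 70.1 in control cells.

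Both probe sets of HSPA4L put the 44 °C array at 6 h above every other array. They parted at 3 h after 44 °C, with log2 folds of 0.95 at 205543_at and 1.89 at 1556194_a_at, so the call at that time turned on the probe set, and the median of the pair was 1.42. At 0 h after 42 °C the log2 fold was 1.00 at 205543_at and 0.94 at 1556194_a_at, so that 2-fold call rested on the brighter probe set.

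HSPA4, the HSP110 relative that is made in unstressed cells of most tissues, stayed within 2-fold by its brightest probe set. At 208815_x_at it read 648, 591, 798 and 1037 at 0, 1, 3 and 6 h after 44 °C. After 42 °C the readings were 847, 854, 1224 and 1247, against 631 in control cells. The 4 arrays after 42 °C all stood above the control, at log2 folds of 0.42, 0.44, 0.96 and 0.98, and the largest after 44 °C was 0.72, at 6 h. Among its 4 probe sets 211016_x_at gave the largest log2 fold, 1.63 at 6 h after 44 °C. With the median over the 4 probe sets HSPA4 had a log2 fold of 1.03 at 3 h after 42 °C, past 2-fold, as it also was with a common median in place of the trimmed mean (1.06 at 3 h and 1.02 at 6 h).

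HSPA9 (mortalin), the HSP70 of the mitochondrial matrix, read 2501, 2294, 2847 and 3148 at 0, 1, 3 and 6 h after 44 °C at 200691_s_at. After 42 °C it read 2626, 2604, 3136 and 2956, against 2479 in control cells, so its whole range over 9 arrays was 1.37-fold. Its other bright probe sets, 200690_at and 200692_s_at, had log2 folds of -0.32 to 0.49. The fourth, 232200_at, was below the floor on 8 of 9 arrays.

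HSPA13 (STCH), which lacks the substrate-binding domain of other HSP70 proteins and is found with microsomes, differed early between its probe sets and was highest late. At 202557_at it read 442, 465, 611 and 1007 at 0, 1, 3 and 6 h after 44 °C. It read 314, 410, 827 and 875 after 42 °C, against 545 in control cells. At this probe set the 0 and 1 h arrays of both temperatures lay below the control and the 3 and 6 h arrays above it, all within 2-fold, with log2 folds from -0.79 to 0.89. The second probe set, 202558_s_at, reached 1.24 at 6 h after 44 °C and 0.99 at 6 h after 42 °C. At 0 and 1 h its log2 folds were 0.23 and 0.016 after 44 °C, not below the control, and -0.047 and -0.33 after 42 °C. Against the 0 h array of the same temperature HSPA13 was past 2-fold, with log2 folds of 1.19 at 6 h after 44 °C and 1.40 and 1.48 at 3 and 6 h after 42 °C.

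HSPA14, which pairs with the J-domain protein DNAJC2 on ribosomes, was flat by its brightest probe set and not by another. At 219212_at it read 898, 923, 963 and 1051 at 0, 1, 3 and 6 h after 44 °C. After 42 °C the readings were 882, 696, 974 and 902, against 977 in control cells. At 226887_at the log2 folds were all above 0, from 0.41 to 0.84 after 44 °C and from 0.55 to 1.21 after 42 °C, where the highest was at 3 h. At the remaining probe set, 227650_at, they were also all above 0, from 0.047 to 0.49. DNAJC2 itself read from 894 to 1377 over the 9 arrays.

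HSPA2, an HSP70 best known from male germ cells, was dim. Its 1 probe set, 211538_s_at, read 6.47, 32.1, 18.1 and 23.5 at 0, 1, 3 and 6 h after 44 °C and 19.9, 22.0, 24.3 and 23.4 after 42 °C, against 24.2 in control cells. The 44 °C array at 0 h was below the floor, where the fold is a bound of at least 1.93-fold lower, and it was the 1 member off the list of genes above the floor on all arrays. With the floor at the 25th percentile (2.91) that log2 fold was -1.90. No direction is drawn from signals this close to the floor.

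**Figure D2:**
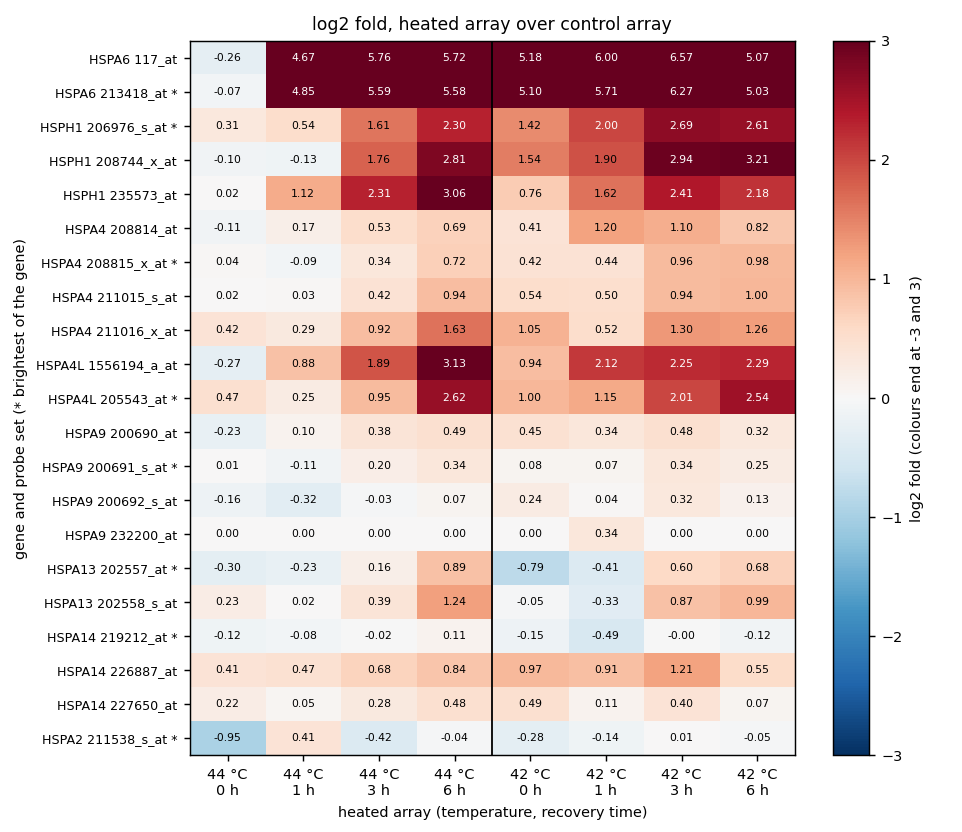
Log2 fold of each heated array over the control array for the 21 probe sets of the 8 genes (rows, with an asterisk at the brightest of each gene), with 44 °C in the left 4 columns and 42 °C in the right 4. HSPA6, HSPH1 and HSPA4L hold the dark cells, and the 44 °C column at 0 h has no value of 1 or more.

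Counted by gene, members rose against the control and 0 fell. After 44 °C 0 of 8 rose at 0 h, where 0.767% of 9913 genes above the floor on all arrays rose. HSPA6 rose alone at 1 h, against 0.928% of all such genes. HSPA6 and HSPH1 rose at 3 h, against 1.48%, and HSPA6, HSPH1 and HSPA4L at 6 h, against 3.58%. After 42 °C these 3 genes rose at every time by their brightest probe sets, where 1.05% of all genes rose at 0 h, 2.05% at 1 h, 2.36% at 3 h and 3.06% at 6 h. The median log2 fold of the 7 members above the floor on all arrays was 0.89 at 6 h after 44 °C and 0.98 at 6 h after 42 °C, beside -0.056 and -0.041 over all such genes. The 8 comparisons share 1 control array, whose error enters all of them.

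The temperatures differed most for HSPA6 at the end of heating. At 0 h its signal after 44 °C was 36.2-fold lower than after 42 °C at 213418_at, and 43.4-fold lower at 117_at. This was the largest deficit of all 9913 genes above the floor. At 1 h the log2 fold of 44 °C over 42 °C was -0.86 at 213418_at and -1.34 at 117_at, so the 2-fold call turned on the probe set. At 3 h both were under 2-fold (-0.68 and -0.81), and at 6 h the 44 °C array was the higher by log2 0.54 and 0.65.

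HSPH1 was more than 2-fold lower after 44 °C at 0, 1 and 3 h by 2 of its 3 probe sets. By 206976_s_at it was 2.15-fold lower at 0 h, 2.75-fold at 1 h and 2.11-fold at 3 h, and by 208744_x_at 3.11-fold, 4.09-fold and 2.26-fold. The third probe set, 235573_at, had log2 folds of -0.75, -0.50 and -0.10 at those times, all under 2-fold. At 6 h the log2 folds of the 3 probe sets ran from -0.41 to 0.88, the highest at 235573_at. With quantile normalisation the log2 fold at 3 h by 206976_s_at was -0.54. The 3 h array was scaled by 0.488 after 44 °C and by 0.989 after 42 °C. All folds between these 2 arrays, those of HSPA6 included, therefore depend on the scaling. For HSPA4L the log2 folds at 0, 1 and 3 h were -0.53, -0.89 and -1.07 at 205543_at and -1.20, -1.23 and -0.36 at 1556194_a_at, so at no time did both probe sets pass 2-fold. HSPA4 did not pass 2-fold by its brightest probe set, with log2 folds of -0.39, -0.53, -0.62 and -0.27 at 0, 1, 3 and 6 h. Over its 4 probe sets they ran from -1.03 to -0.23 at 1 h, past 2-fold at 208814_at alone, and from -0.27 to 0.37 at 6 h.

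Of the 8 members 2 were lower at 0 h after 44 °C than after 42 °C (HSPA6 and HSPH1), where 0.807% of all genes above the floor were lower. At 1 h HSPH1 alone was lower, against 1.11% of all genes, and at 3 h HSPH1 and HSPA4L were, against 0.938%, HSPA4L by the brighter of its probe sets alone. None was higher at these times. At 6 h 0 members were higher and 0 lower, where 0.948% of all genes were higher. The median log2 fold of the 7 members above the floor was -0.39, -0.53, -0.62 and 0.091 at 0, 1, 3 and 6 h, beside 0.029, 0.0096, 0.013 and -0.00085 over all genes.

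**Figure D3:**
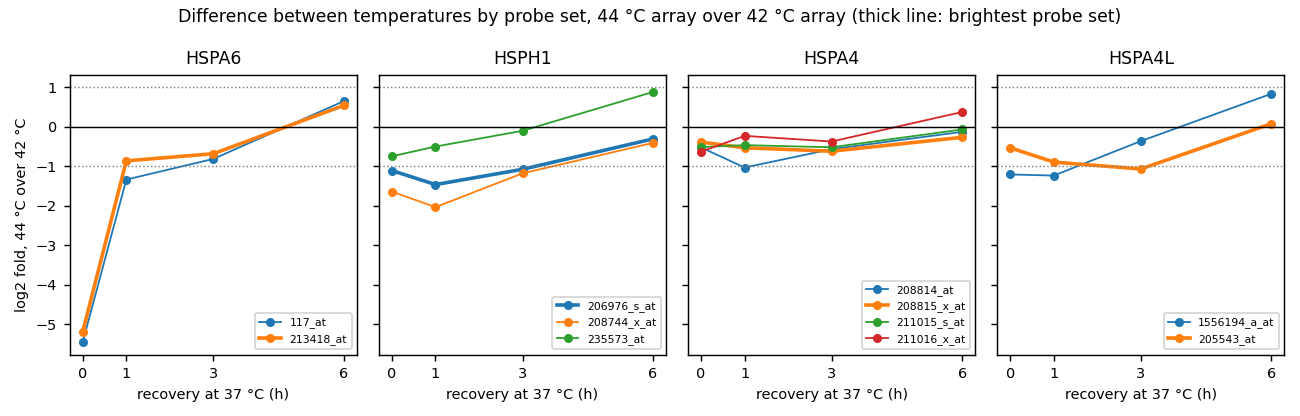
Log2 fold of 44 °C over 42 °C at equal recovery time (vertical axis) against hours of recovery, 1 line per probe set of HSPA6 and the HSP110 genes, with dotted lines at 2-fold. HSPA6 starts at -5.18 by 213418_at and ends at 0.54, and in the scaled signals all 11 probe sets lay below 0 at 0, 1 and 3 h.

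The courses of HSPA6 and HSPH1 over the 9 arrays had different nearest matches. Likeness was Pearson's r of log2 signals over the 9 arrays, against 3493 other genes that were above the floor on all arrays and had a range of at least 1 in log2. The values share arrays, scaling and the same few heated conditions, and are a description. The 5 genes most like HSPA6 were the early response gene IER5 (r = 0.995), the HSP40 member DNAJB1 (0.985), the G protein regulator RGS2 (0.984), the phosphatase subunit PPP1R15A (0.976) and the HSP70 cochaperone BAG3 (0.960). IER5, for example, read 471, 2725, 4847 and 4894 after 44 °C and 3830, 4810, 6652 and 3506 after 42 °C, against 524 in control cells, so it shared the low 44 °C value at 0 h and the lower 42 °C value at 6 h.

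HSPH1 was most like the mitochondrial ribosomal protein gene MRPL18 (r = 0.992), the small heat shock protein HSPB1 (0.990), the HSP90 cochaperone FKBP4 (0.990), CACYBP, a binding partner of calcyclin (0.985), and the HSP40 member DNAJA1 (0.984). MRPL18 read 1777, 1744, 3121 and 4604 after 44 °C and 3011, 4004, 6061 and 5610 after 42 °C, against 1661 in control cells. Among the members, r with HSPH1 was 0.951 for HSPA4, 0.916 for HSPA4L, 0.857 for HSPA9 and 0.812 for HSPA6, and it was -0.046 for HSPA14. The r of HSPA6 with HSPA4L was 0.616. In the promoter windows, 0 of the 5 genes most like HSPA6 and 1 of the 4 genes most like HSPH1 that were in the table held a 3-unit element, namely DNAJA1 with GAACTTTCCAGAA. Of the same genes, 2 of 5 and 3 of 4 held a 2-unit match, beside 16.2% of all 27305 genes of the table.

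Among genes that work with HSP70 a few rose far and most stayed near the control. Of 11 other exchange factors BAG3, which joins HSP70 to small heat shock proteins, was the 1 to rise. It rose 20.5-fold at 6 h after 44 °C and 29.1-fold at 3 h after 42 °C. In those comparisons 3.58% and 2.36% of all genes above the floor rose. The list median ran from -0.20 to 0.15 over the 8 comparisons with the control. BAG3 was 10.2-fold lower after 44 °C than after 42 °C at 0 h and 3.45-fold lower at 1 h. The endoplasmic reticulum exchange factors HYOU1 and SIL1 and the mitochondrial ones GRPEL1 and GRPEL2 passed 2-fold in none of them.

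Of 14 J-domain partners of the cytosol and nucleus 4 rose at 6 h after 44 °C and 4 at 6 h after 42 °C, with 0 that fell, where 3.58% and 3.06% of all genes above the floor rose. At 0 h after 44 °C 0 of 14 rose, beside 0.767% of all genes, and DNAJA4 lay just under 2-fold (40.8 against 20.5 in control cells). DNAJB1, a partner of HSP70 in aggregate clearance, read 1008, 4168, 6661 and 7378 at 0, 1, 3 and 6 h after 44 °C. It read 6140, 8130, 12298 and 6359 after 42 °C, against 742 in control cells. DNAJA1 rose 3.12-fold at 6 h after 44 °C and 3.65-fold at 6 h after 42 °C. DNAJA4 stood 60.6-fold above the control at 6 h after 44 °C at the brightest of its probe sets, while the others gave log2 folds of 1.29 to 5.16. The other riser at 6 h was DNAJB2 after 44 °C (at least 2.70-fold) and DNAJB4 after 42 °C (2.33-fold). DNAJB2 was below the floor in control cells, so it is not among the genes behind the shares above.

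HSPA1L, an HSP70 gene next to HSPA1A and HSPA1B, was the 1 of 4 measured other HSP70 family genes to rise. Its brightest probe set read 27.6, 68.7, 201 and 176 at 0, 1, 3 and 6 h after 44 °C and 115, 199, 351.04 and 103 after 42 °C, against 31.7 in control cells. Against a control signal below the floor, its other probe set had log2 folds of at least 1.32 at 3 h after 44 °C and at least 2.75 and 1.499 at 1 and 3 h after 42 °C. At 6 h after either temperature that probe set was below the floor, as in control cells, and gave no fold. HSPA5 (BiP), the HSP70 of the endoplasmic reticulum, stayed between 2756 and 4274 on all arrays, beside 3288 in control cells. Of the atypical family members, HSPA12A was above the floor on 1 array and HSPA12B on 0. HSPA1A, HSPA1B, HSPA7 and HSPA8 had no probe set with 1 symbol and are not among the 4. Whether HSPA1A or HSPA1B transcripts add to the HSPA1L signals was not tested. Over the 8 comparisons with the control 0.767 to 3.58% of all genes above the floor rose.

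Of 12 mitochondrial partners of HSPA9 0 rose and 0 fell in any of the 8 comparisons with the control, the chaperonin genes HSPD1 and HSPE1 included, with list medians of -0.12 to 0.23. Since 0.767 to 3.58% of all genes rose in these comparisons, a count of 0 in 12 is near the share over all genes. At 3 h after 42 °C HSPE1 read 7906 and HSPD1 17817, against 4122 and 9497 in control cells, both just under 2-fold. Of 10 genes of the endoplasmic reticulum list DNAJB9 alone rose, by 4.17-fold and 4.01-fold at 3 and 6 h after 44 °C. After 42 °C it rose 4.66-fold and 2.40-fold at those times, with log2 folds of 0.73 to 1.14 at its other probe sets at 6 h. DNAJC3 fell 2.19-fold at 0 h after 44 °C by its brightest probe set, while the others had log2 folds of -1.54 to -0.30. Of 9 measured genes that link HSP70 with HSP90, 3 rose at 6 h after 44 °C and 3 at 6 h after 42 °C: FKBP4 (3.18-fold and 3.52-fold), CHORDC1 (3.02-fold and 2.38-fold) and STIP1 (2.02-fold and 2.22-fold). Other probe sets of FKBP4 had log2 folds of 0.32 to 1.66 at 6 h after 44 °C and 0.32 to 1.25 at 6 h after 42 °C. The other probe set of CHORDC1 was below the floor at 6 h after both temperatures, as in control cells. Its log2 fold was at least 0.88 at 1 h after 42 °C. HSP90AA1 rose at 3 h after 42 °C, by 2.09-fold. Of 4 measured heat shock factors and regulators 0 rose in the 8 comparisons, where 0.767 to 3.58% of all genes above the floor did. HSF4, 1 of the 4, was below the floor on all arrays. HSF1 fell 2.07-fold at 6 h after 42 °C by its brightest probe set, while the other had a log2 fold of 0.40.

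**Figure D4:**
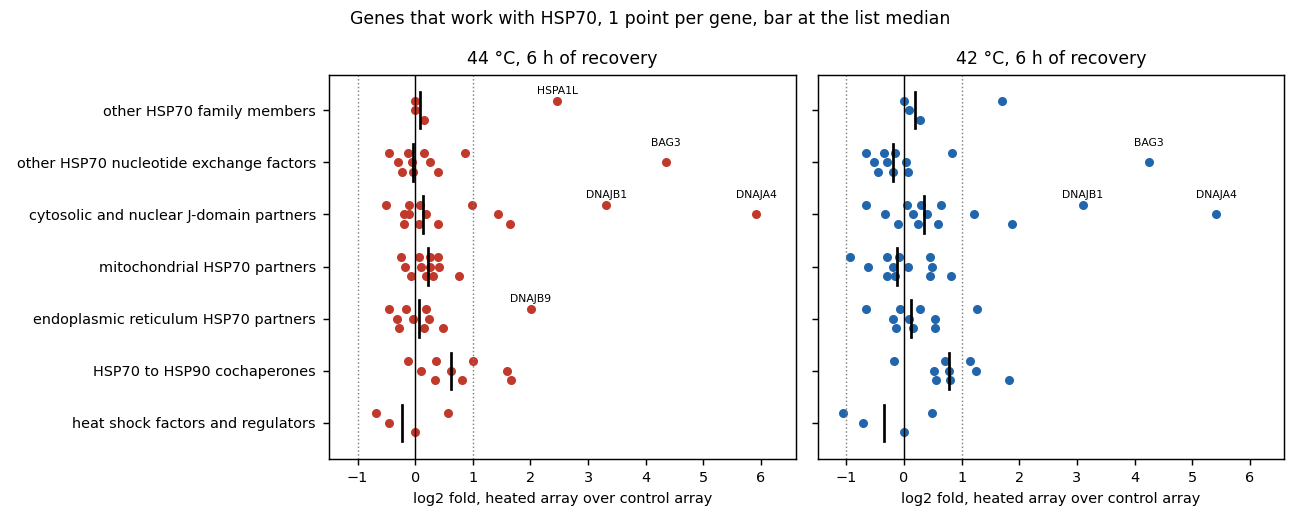
Log2 fold of the heated array over the control array at 6 h of recovery (horizontal axis) for the genes of 7 lists, 1 point per gene by its brightest probe set, with 44 °C on the left, 42 °C on the right, bars at the list medians and dotted lines at 2-fold. BAG3, DNAJB1 and DNAJA4 lie far to the right at both temperatures while the list medians lie between -0.35 and 0.79.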

How the data were processed

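The deposited values were intensity values on a linear scale, with 54675 probe sets on each Affymetrix U133 Plus 2.0 array. The submitters' processing notes name MAS5, and its target intensity is not given in the sources used here. Factors of 0.474 to 0.989 were applied so that every array had a trimmed mean (2% off each end, 62 array controls left out) of 100. A floor at the median over all scaled signals (12.5) was set before log2. Values in the text are scaled signals before the floor. Gene names came from the platform annotation, and all 8 members matched RefSeq by gene number. A gene was read at the brightest of its probe sets (highest mean in log2), and 9913 of 19775 genes were above the floor on all arrays. Comparisons numbered 12, of which 8 set a heated array against the control and 4 set 44 °C against 42 °C at equal times. With 1 array per condition a difference was counted by size alone, 2-fold or more, and the script was tested on simulated data. All 8 members were named, with up to 4 genes past 2-fold from each of 12 lists per comparison and the 5 genes most like HSPA6 and HSPH1. The members, the lists and the steps between recovery times were chosen with earlier results of these data known. Alternatives were quantile normalisation, a common median, floors at the 25th and 75th percentile, the median over probe sets and the 0 h array as baseline. Python 3.11.15 with pandas 2.3.3 and numpy 2.4.6 was used. Scanner files were not analysed here, and the number of arrays limits the precision.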

Additional observations from a re-analysis of the deposited data

Results flagged for a closer look

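Signal appeared in 3 probe sets that the comparisons above leave out because their annotation joins several HSP70 genes. Probe set 200799_at, which is shared by HSPA1A and HSPA1B, read 831, 5327, 7476 and 8988 at 0, 1, 3 and 6 h after 44 °C and 6095, 8376, 13449 and 10249 after 42 °C, against 636 in control cells. Its largest log2 fold over the control was 4.40, at 3 h after 42 °C. A second probe set with that pair of symbols, 202581_at, had a largest log2 fold of 4.20. For 200800_s_at, which also carries the symbol HSPA1L, it was 5.11. All 3 stood within log2 0.39 of the control at 0 h after 44 °C, and were past 2-fold on the other 7 heated arrays. Between 3 and 6 h after 44 °C all 3 signals went up, and HSPA6 changed by log2 -0.013. No level can be given to one gene from them.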

How the results depend on the processing

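No paired analysis was possible because each condition had 1 array, and for the same reason no replicate could be left out. The count of members past 2-fold was within 1.5 times its value under all 5 alternatives in 9 of the 12 comparisons. With the floor at the 25th percentile it was 1 at 0 h after 44 °C against the control, through HSPA2. For 44 °C over 42 °C it was 3 at 1 h with the median over probe sets, and at 3 h it was 1 with that median and 1 with quantile normalisation. Counting each member in each comparison and recovery step, 141 of 144 log2 folds kept their side of 2-fold with quantile normalisation and 141 with a common median, 142 and 143 with the lower and the higher floor, and 137 with the median over probe sets. Against the 0 h array of the same temperature 40 of 48 did, and HSPA6 at 6 h after 42 °C changed sign (-0.070). A common median in place of the trimmed mean moved the median of all genes above the floor to 0.11 at 0 h after 42 °C, and no other scaling moved it past 0.1 in size. Signals below the floor carry bounds only, among the brightest probe sets of the members that of HSPA2 at 0 h after 44 °C.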

Other observations

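HSPA8, the HSP70 that most cells make without stress, is measured here only by 4 probe sets that also carry the symbols of small nucleolar RNAs in its introns. They read 12785 to 13838 at 3 h after 42 °C, against 7710 to 8119 in control cells, which is a log2 fold of 0.68 to 0.80. At 1 h after 44 °C their log2 folds were -0.28 to -0.17, and on no heated array did any of them pass 2-fold.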
